A study of Mus musculus with 26 samples.

Results

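Oxidative phosphorylation is carried out in the inner mitochondrial membrane by 5 protein complexes. Complexes I (NADH dehydrogenase) and II (succinate dehydrogenase) feed electrons to complex III (the cytochrome bc1 complex), which passes them through cytochrome c to complex IV (cytochrome c oxidase), and ATP synthase uses the proton gradient that complexes I, III and IV build. Most subunits are encoded in the nucleus, and a few core ones in mitochondrial DNA. Mature neutrophils, which fill much of the bone marrow, rely largely on glycolysis and hold few mitochondria, while erythroid and lymphoid precursors hold more.

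The genes described here are those whose symbol begins as the nuclear subunits of the 5 complexes do. The rule takes Nduf with a, b, c, s or v and a number, Sdha to Sdhd, Uqcr and Atp5. It also takes Cox4 to Cox8 followed by a, b or c, so that Cox4i1 lies outside it. The Nduf assembly factors are left out. The rule used no measured value. It found 72 of the 18138 gene symbols on the array, measured by 89 of its 25697 probes. Of these, 84 probes of 68 genes were detected on at least 3 arrays and entered the tests, and 65 were detected on all 26 arrays. The tested probes comprise 41 of complex I, 6 of complex II, 5 of complex III, 14 of complex IV and 18 of ATP synthase. Ndufa4 is counted with complex IV, of which its protein is a subunit. The rule also takes in Cox7a2l, a factor of respiratory supercomplexes, and Atp5s and Atp5sl, now named Dmac2l and Dmac2, which are not classical subunits. Atp5f1 and Uqcr are now named Atp5pb and Uqcr11.

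RNA came from femoral marrow leukocytes of male SCID mice (CB17/Icr-Prkdcscid) aged 6 to 8 weeks. All the mice, controls included, carry the Prkdc mutation of this strain, which lacks mature B and T cells, and had earlier been engrafted with human acute lymphoblastic leukemia, whose cells were gated out in the sort. Mice stayed in the home cage (control), underwent restraint stress, or underwent restraint stress and received propranolol, which blocks beta-adrenergic receptors. In each of 2 experiments they had 5, 5 and 3 arrays, which gives 10, 10 and 6 arrays. The arrays lay on 4 slides. Slide 1 held the 5 control and 3 restraint arrays of experiment 1, and slide 2 its other arrays and some experiment 2 controls. Slide 3 held 2 control, 5 restraint and 1 restraint plus propranolol array of experiment 2, and slide 4 its other arrays. Within an experiment, restraint plus propranolol and control shared only slide 3, so condition was partly confounded with slide. Whether every array is a mouse of its own is not stated in the labels, so the p-values measure the spread between these samples, which may be technical. Expression is given as log2 intensity after background correction and quantile normalization.

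Each array detected 39.5% to 51.2% of the probes, and precision is limited by how many arrays there are. The neutrophil list, 14 markers, was measured in full, with a mean log2 intensity per array of 10.80 to 11.37. Erythroid markers were also present in these sorted leukocytes. Between control and restraint 9 of 18 fell (limma adjusted p under 0.05), where 2.06% of all probes were called. The mean over the list was 5.57 to 9.11 on control arrays, 5.19 to 7.08 on restraint arrays and 5.01 to 8.20 on restraint plus propranolol arrays. On slide 1 it was 8.03, 8.97, 5.57, 9.11 and 8.02 on control arrays and 6.03, 5.72 and 6.56 on restraint arrays. In experiment 2 the control arrays on slide 2 were at 8.52, 8.88 and 7.85. Those on slide 3, at 6.34 and 6.17, lay inside the range of the restraint arrays there (5.33 to 7.08). Of 8 B lineage markers, 2 fell, and the mean over the list was 5.41 to 7.27, 5.09 to 5.63 and 5.10 to 5.79 in the same order. On slide 1 this mean was 5.90, 6.93, 5.41, 7.22 and 6.14 on control arrays and 5.34, 5.55 and 5.63 on restraint arrays. In experiment 2 it was 6.78, 7.27 and 6.36 on the control arrays of slide 2. On slide 3 it was 5.51 and 5.79 on control arrays and 5.43 to 5.62 on restraint arrays. Of 10 monocyte and macrophage markers, 1 rose between control and restraint, and 8 had a positive difference. Their mean was 7.08 to 8.02 on control arrays, 7.64 to 8.33 on restraint arrays and 7.46 to 8.11 on restraint plus propranolol arrays. The part of slide in these shifts was not tested. The part of these shifts in any value below was not tested. Fewer cells of a type and less RNA per cell cannot be told apart in such bulk samples.

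Promoters of 61 of the 72 genes were found in RefSeq (GRCm38.p6), as 250 bases before to 50 bases after the start of the gene. NRF1, a transcription factor known for binding promoters of respiratory genes, recognises a site with the letters GCGCNTGCG. A search on both strands found them in 20 of the 61 windows, or 32.8%, against 7.12% of all 27025 promoters and 14.7% of the 8366 promoters of tested genes. The YY1 motif AAGATGGCG was in 8 of 61, or 13.1%, against 1.64% of all and 3.35% of tested genes. The ETS motif CCGGAAGT was in 4, or 6.56%, against 4.31% and 9.14%, and the SP1 motif GGGGCGGGG in 12, or 19.7%, against 12.9% and 23.7%. None of these motifs contains another. The lengths of the NRF1 and YY1 motifs were chosen after longer forms had been searched and their shares seen, and a shorter form matches at least as many promoters in every set. A match of letters is a description and does not show that a factor binds. The 150 bases before the start are shown for a pair of genes that hold the NRF1 letters on either strand, in capitals, and for a pair of complex IV isoforms that were detected on different numbers of arrays. Atp5g2 lies at chr15:102671048-102671197, minus strand, Cox6a1 at chr5:115348959-115349108, minus strand, Cox7a2 at chr9:79759854-79760003, minus strand, and Cox7a1 at chr7:30184021-30184170, plus strand.
Atp5g2: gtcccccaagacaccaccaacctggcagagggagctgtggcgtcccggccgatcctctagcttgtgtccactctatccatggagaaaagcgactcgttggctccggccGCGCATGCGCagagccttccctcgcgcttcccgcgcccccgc
Cox6a1: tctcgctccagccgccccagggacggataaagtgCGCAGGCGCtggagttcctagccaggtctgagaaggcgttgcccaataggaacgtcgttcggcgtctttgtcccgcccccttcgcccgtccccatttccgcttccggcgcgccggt
Cox7a2: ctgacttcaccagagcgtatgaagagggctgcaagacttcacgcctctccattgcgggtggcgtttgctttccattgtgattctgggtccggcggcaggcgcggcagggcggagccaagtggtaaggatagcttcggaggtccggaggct
Cox7a1: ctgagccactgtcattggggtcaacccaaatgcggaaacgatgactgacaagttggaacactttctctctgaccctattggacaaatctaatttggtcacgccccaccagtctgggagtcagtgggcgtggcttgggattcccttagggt

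Over the 84 probes, the mean log2 intensity per array was 8.44 ± 0.17 (SD, n = 10) in control, 8.44 ± 0.10 (n = 10) in restraint and 8.46 ± 0.04 (n = 6) in restraint plus propranolol. In experiment 1 it was 8.47 ± 0.18 (n = 5), 8.45 ± 0.09 (n = 5) and 8.49 ± 0.02 (n = 3), and in experiment 2 it was 8.41 ± 0.17 (n = 5), 8.43 ± 0.13 (n = 5) and 8.44 ± 0.04 (n = 3). The ranges of the 3 conditions overlapped, at 8.15 to 8.62, 8.22 to 8.57 and 8.39 to 8.51. The differences between the means were smaller than the spread within the control arrays. Within groups, a single probe had an SD of 0.10 to 0.89, with a median of 0.31, against a median of 0.39 over all tested probes.

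**Figure D1:**
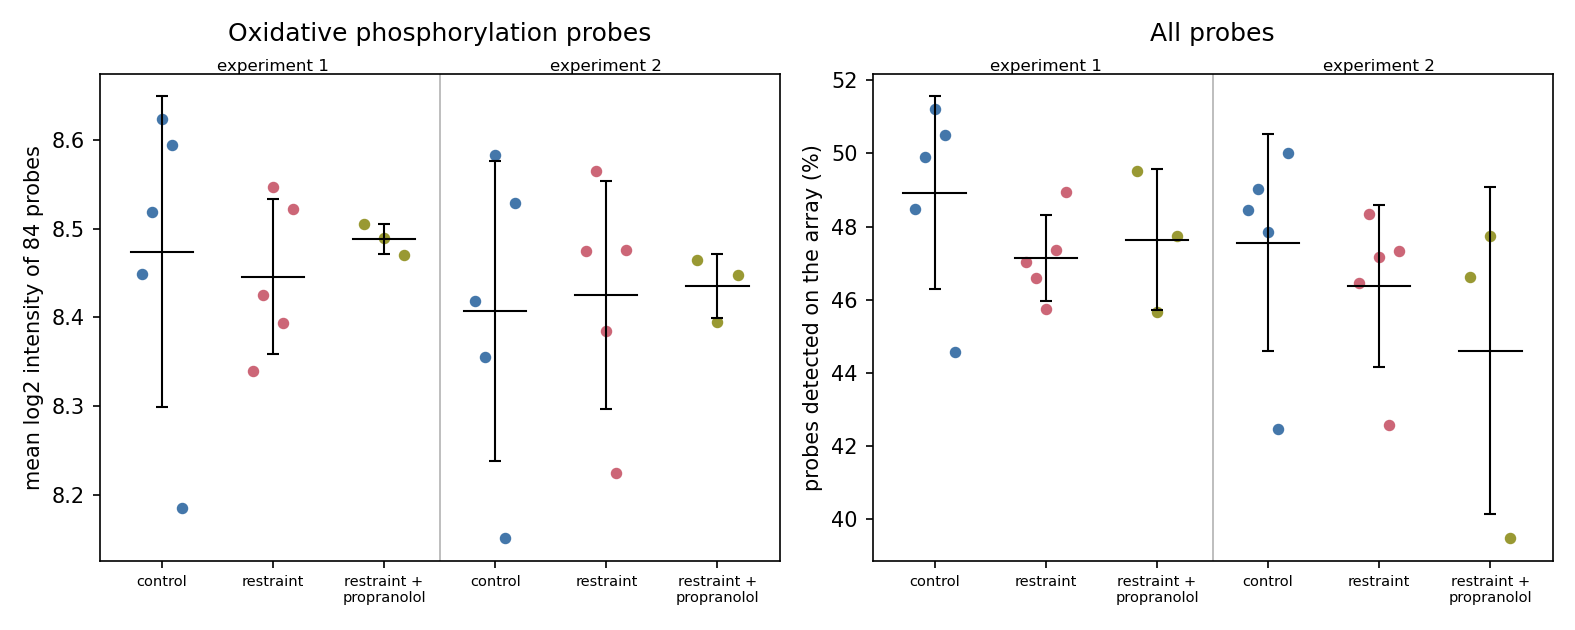
Mean log2 intensity of the 84 oxidative phosphorylation probes per array (left) and the percentage of all probes detected on the same array (right), by experiment and condition; each point is an array, and the bars are the mean and SD. The control arrays span 8.15 to 8.62 and enclose all restraint and restraint plus propranolol arrays; the lowest control array of each experiment also has the lowest share of detected probes in its group.

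One control array of each experiment stood apart, replicate 5 of experiment 1 and replicate 4 of experiment 2, which lie on different slides. Their shares of detected probes were 44.6% and 42.5%. Of the 84 probes, 49 had their lowest value of the group on the first and 47 on the second, and 38 on both. These 38 are 45.2% of the probes, against 23.9% of all tested probes, and they include Cox5a, Cox5b, both probes of Cox6a1 and Cox6b1, Uqcrc1, Uqcrh, Ndufa1, Ndufb9, Ndufc2 and Atp5d. Another 17, or 20.2% against 21% of all, were highest on both, among them Ndufb2, Ndufv1, Cox6b2, Cox7a2, Sdhd, Atp5b and Atp5g3. By complex, those lowest and highest on both were 18 and 7 of 41 in complex I, 2 and 2 of 6 in complex II, 2 and 1 of 5 in complex III, 7 and 3 of 14 in complex IV, and 9 and 4 of 18 in ATP synthase. Replicate 4 of the experiment 2 restraint group, with 42.6% of probes detected, was the lowest of its group for 20 of the 38 and for 29 of all 84. No share over all tested probes is given for the counts of 49, 47, 20 and 29, so they do not set these genes apart. The 2 arrays were singled out after their values were seen, so these counts are a description. Values without them and without restraint plus propranolol replicate 3 of experiment 2, the 3 arrays of lowest weight in limma, are given below for the medians by complex and for each named gene whose printed difference over both experiments moves by over 1.5 times or turns its sign.

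**Figure D2:**
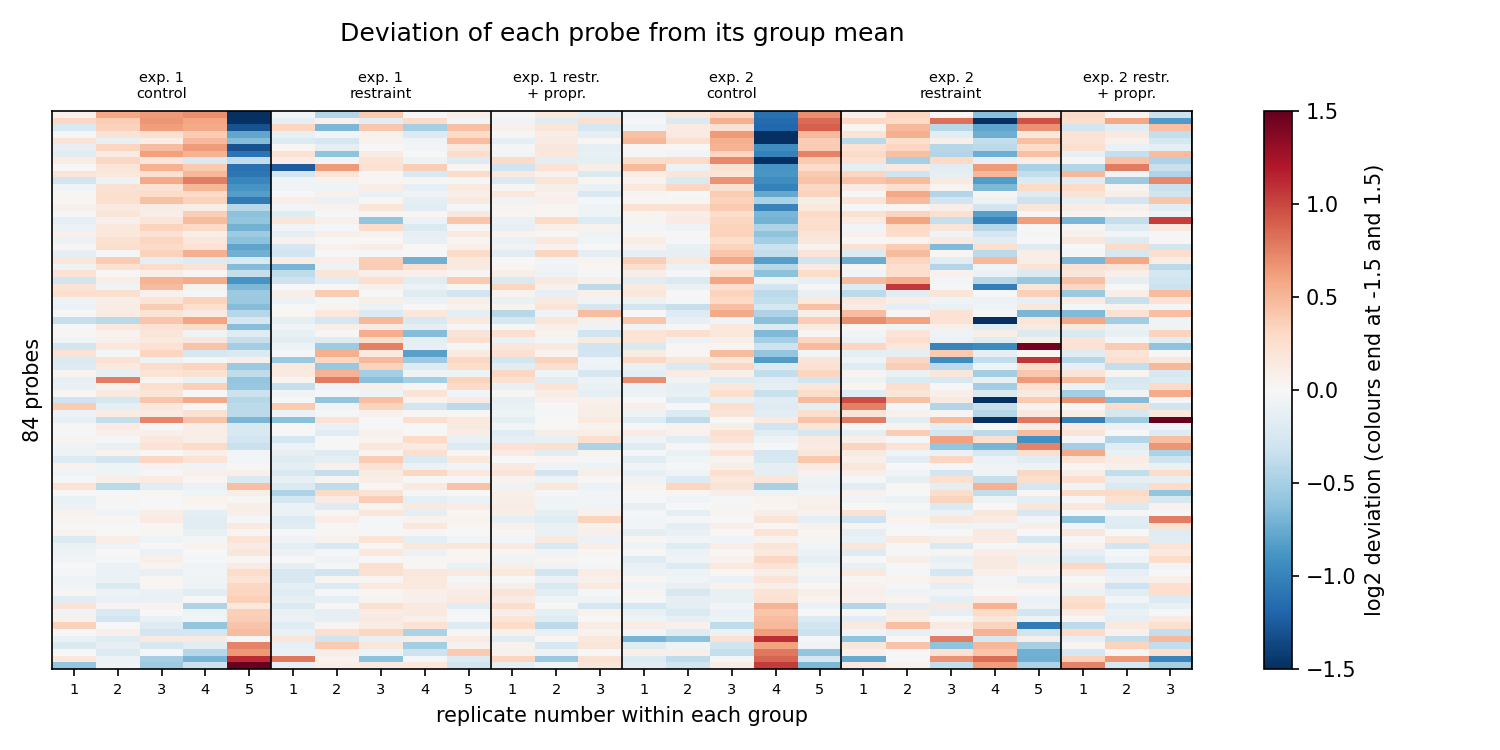
Log2 deviation of each of the 84 probes (rows) from the mean of its group, for the 26 arrays (columns) by experiment and condition; rows are ordered by the sum of the deviations on the 2 control arrays that stood apart. Control replicate 5 of experiment 1 and control replicate 4 of experiment 2 show the same blocks of low and high probes, as the ordering of the rows favours, and the other control arrays deviate less.

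The first comparison asked whether restraint changed these genes. No oxidative phosphorylation probe passed the test. With limma, 0 of 84 were called at an adjusted p under 0.05, where the background was 2.06% of 15061 probes (310 probes). At an unadjusted p under 0.05 there were 3, of which 1 was higher and 2 were lower, or 3.57% against 14% of all probes. A share of 2.06% would amount to very few of 84 probes, so the absence of calls does not set the genes apart. The median log2 difference was -0.01, against 0.01 over all tested probes, with 38 probes higher and 46 lower. The differences ran from -0.47 to 0.39 and 0 of 84 exceeded 0.5 in size, against 7.44% of all probes. The median size was 0.08 against 0.15. The 95% interval of the difference lay within 1 log2 unit (2-fold) of no change for 83 probes and within 0.5 (1.41-fold) for 60.

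**Figure D3:**
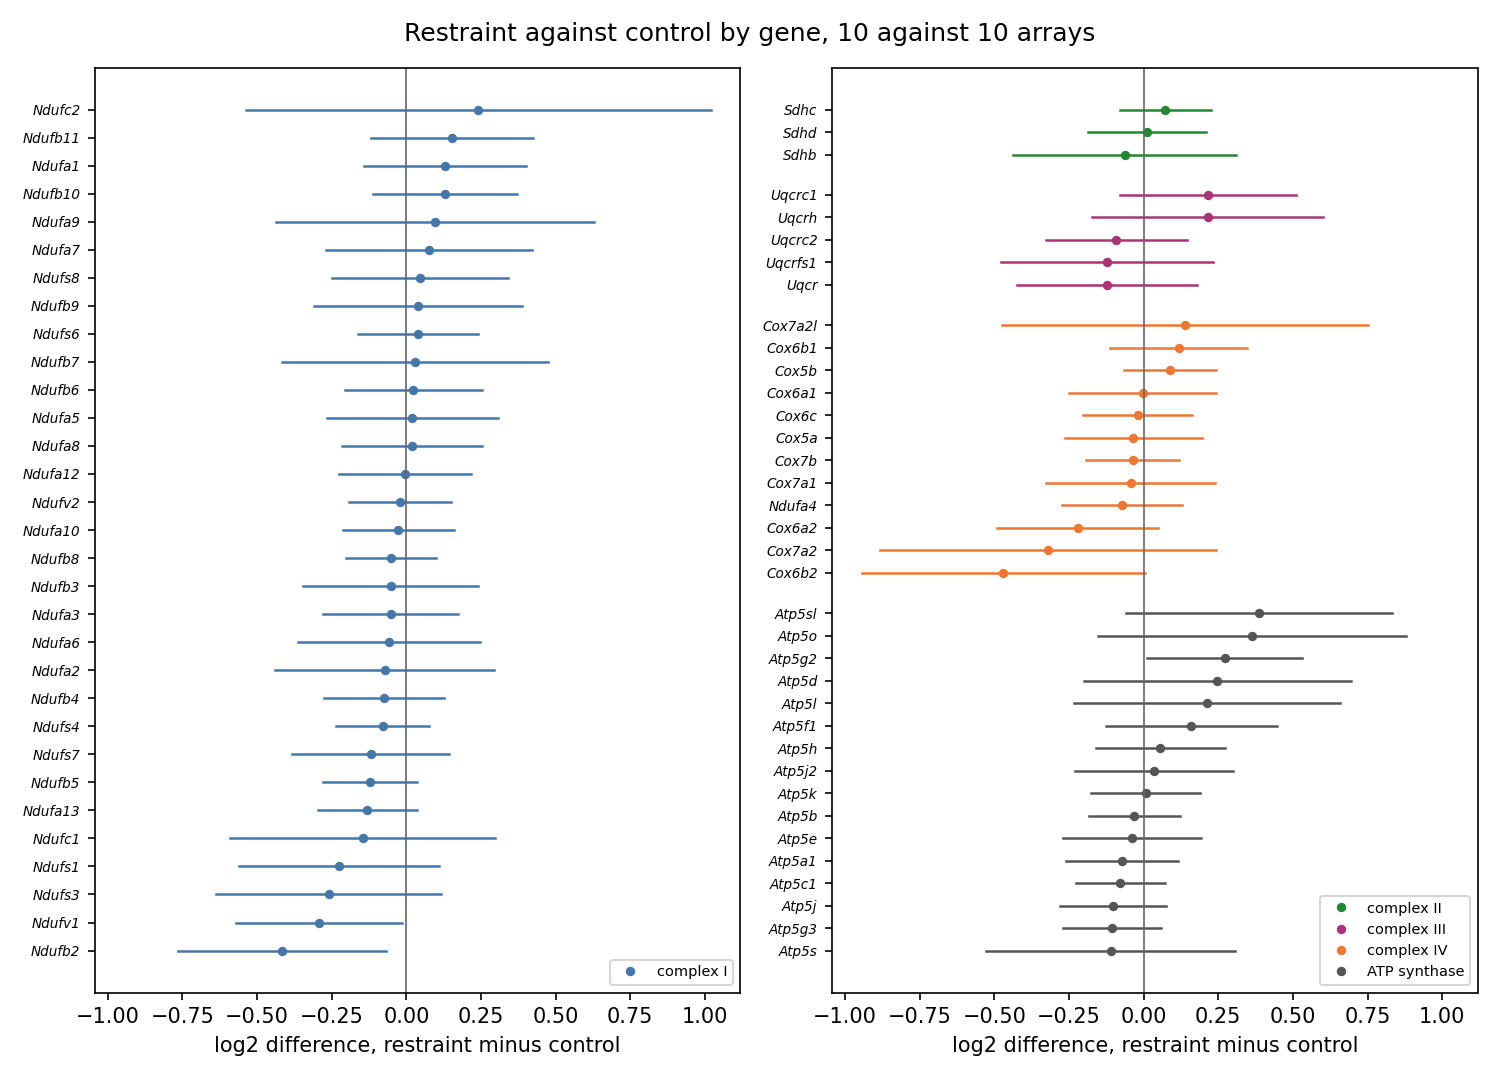
Log2 difference of restraint minus control for 67 of the 68 genes, each by its probe of highest mean, with the 95% interval from limma (10 against 10 arrays), by complex. The points lie between -0.47 and 0.39, and the intervals of Ndufb2, Ndufv1 and Atp5g2 do not cross 0 before adjustment for multiple tests.

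By complex, the median difference between restraint and control was -0.02 for complex I, 0.04 for complex II, -0.09 for complex III, -0.03 for complex IV and 0.01 for ATP synthase. On slide 1 (3 restraint and 5 control arrays of experiment 1) the median over all 84 probes was -0.05. On slide 3 (5 restraint and 2 control arrays of experiment 2) it was 0.05. The sign thus differed between these slides. Without the 3 arrays of lowest weight the median was -0.08, against 0.00 over all 14808 probes then tested, and 0 of 84 were called (background 3.42%). From complex I to ATP synthase it was then -0.11, 0.03, -0.03, -0.09 and -0.05, so that the sign for ATP synthase turned.

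In complex I, which takes electrons from NADH, the smallest p belonged to Ndufb2, an accessory subunit of the membrane arm. Its log2 intensity on control arrays was 7.95, 8.04, 7.92, 7.99 and 8.90 in experiment 1 and 8.10, 8.21, 7.98, 8.88 and 8.23 in experiment 2. On restraint arrays it was 7.83, 8.35, 8.12, 7.44 and 8.01, and 7.83, 8.09, 7.06, 8.16 and 7.16. The 2 highest values are those of the control arrays that stood apart, and the groups overlapped. On restraint plus propranolol arrays it was 8.03, 7.73 and 8.15, and 7.79, 8.09 and 7.38. The difference between restraint and control was -0.42 (95% interval -0.77 to -0.07, limma adjusted p = 0.25), with 1 of 10 restraint arrays above the control mean of its experiment. It was -0.21 ± 0.24 (SE) in experiment 1 and -0.62 ± 0.24 in experiment 2, and -0.24 without the 3 arrays of lowest weight.

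Ndufv1, the core subunit that binds NADH and flavin, had control values of 9.79, 9.87, 9.51, 9.54 and 10.26 in experiment 1 and 9.68, 9.55, 9.63, 10.35 and 9.41 in experiment 2. Its restraint values were 9.40, 9.76, 9.83, 9.03 and 9.52, and 9.37, 9.30, 9.38, 9.95 and 9.12. Here too the highest value of each control group came from the array that stood apart. The difference was -0.29 (95% interval -0.57 to -0.01, limma adjusted p = 0.32), and -0.15 without the 3 arrays of lowest weight. Ndufs1, another core subunit, which carries iron-sulfur clusters, differed by -0.23 (95% interval -0.56 to 0.11), and by -0.05 without the 3 arrays. The largest positive difference in complex I was that of Ndufc2, at 0.24, with the widest interval of all (-0.54 to 1.02) and a within-group SD of 0.89. Its sign turned without the 3 arrays, to -0.15, and without control replicate 5 of experiment 1 alone it was 0.01. Ndufb8, an accessory subunit, had the smallest SD, 0.10, and a difference of -0.05 (-0.20 to 0.10), or -0.02 without the 3 arrays.

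**Figure D4:**
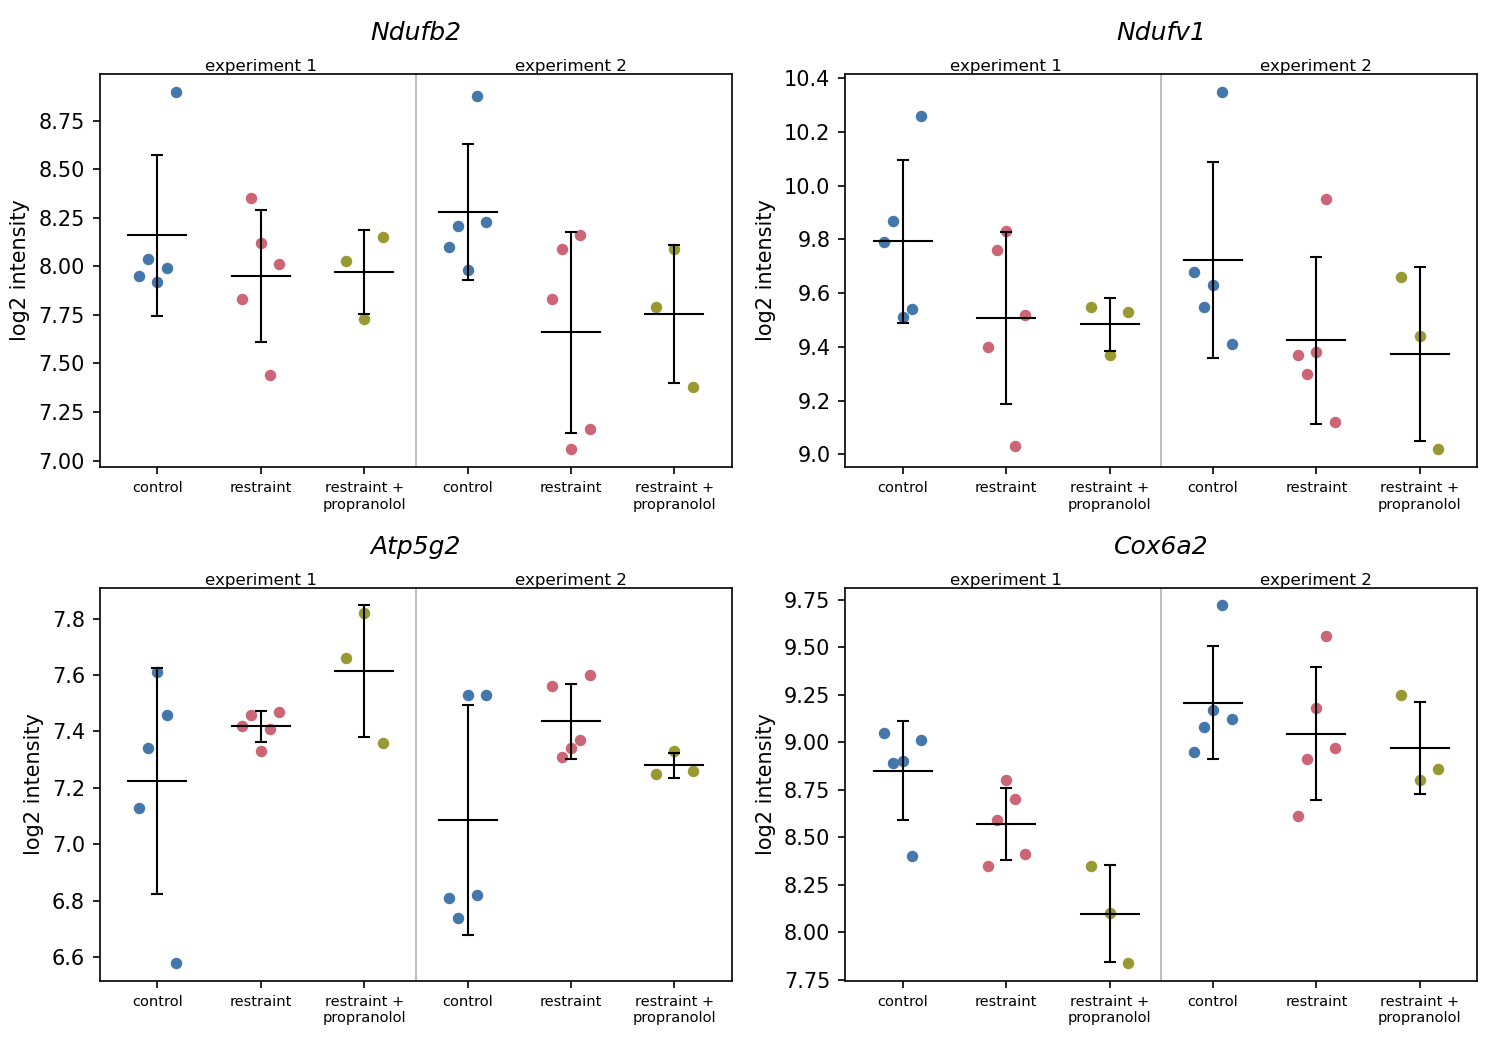
Log2 intensity of Ndufb2, Ndufv1, Atp5g2 and Cox6a2 on each array by experiment and condition; points are arrays, and bars are the mean and SD. The highest Ndufb2 and Ndufv1 values of each control group come from 1 array, Atp5g2 restraint values lie above the control mean of their experiment, and Cox6a2 is lowest on restraint plus propranolol arrays of experiment 1.

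Complex II links the tricarboxylic acid cycle to the chain. The iron-sulfur subunit Sdhb differed between restraint and control by -0.06 (95% interval -0.44 to 0.31) at its representative probe and by 0.16 and 0.24 at the other 2, so its probes differed in sign. The representative probe was at 0.07 without the 3 arrays, with its sign turned. Sdhc, a membrane anchor, differed by 0.07 (-0.08 to 0.23) at its representative probe and by -0.07 at its other probe, so its sign also depended on the probe. The catalytic subunit Sdha was not analysed here. In complex III, the core protein Uqcrc1 differed by 0.22 (-0.08 to 0.51, limma adjusted p = 0.55). The Rieske iron-sulfur protein Uqcrfs1 differed by -0.12 (-0.48 to 0.23) and Uqcr by -0.12 (-0.43 to 0.18). Uqcrc1 was at 0.10, Uqcrfs1 at -0.01 and Uqcr at -0.21 without the 3 arrays.

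In complex IV, the nuclear subunits Cox5a and Cox5b, which every tissue uses, differed by -0.04 (95% interval -0.26 to 0.19) and 0.09 (-0.07 to 0.24), and by -0.15 and 0.02 without the 3 arrays. Several complex IV subunits have tissue isoforms, and these differed in how often they were detected. Cox6a1 and Cox6b1, the widely expressed forms, and Cox7a2, the form typical of liver, were detected on all 26 arrays. Cox6a2, known from heart and skeletal muscle, was also detected on all 26. Cox7a1, likewise a heart and muscle form, was detected on 10 arrays, and Cox6b2, known from testis, on 16 arrays at 1 probe and on 1 array at the other. Cox8b, Cox8c and Cox7b2 were detected on 0 arrays, as was Uqcrq of complex III. Every cell uses Uqcrq, so this probe gives no measure of its level. Atp5g1, Cox8a and Ndufa4l2 were not analysed here.

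The largest negative difference between restraint and control in complex IV was Cox6b2, at -0.47 (95% interval -0.94 to 0.00, limma adjusted p = 0.36). It was detected on 8 of 10 control, 6 of 10 restraint and 2 of 6 restraint plus propranolol arrays. Its control values ran from 4.86 to 6.95, and the highest, 6.95 and 6.58, were those of the 2 arrays that stood apart. Without the 3 arrays of lowest weight the difference was -0.16. Taking each gene by its probe of highest mean, the largest positive one was Cox7a2l, at 0.14 (-0.48 to 0.75), or 0.07 without the 3 arrays. A second probe of Cox6b1 was at 0.18.

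In ATP synthase, the catalytic subunits Atp5a1 (alpha) and Atp5b (beta) differed by -0.07 (95% interval -0.26 to 0.12) and -0.03 (-0.18 to 0.12), and Atp5b, with its sign turned, by 0.01 without the 3 arrays. Atp5g2, one of several genes for the c subunit of the membrane ring and a promoter with the NRF1 letters above, had the smallest p. Its control values were 7.13, 7.34, 7.61, 7.46 and 6.58 in experiment 1 and 6.81, 6.74, 7.53, 6.82 and 7.53 in experiment 2. Its restraint values were 7.42, 7.46, 7.33, 7.41 and 7.47, and 7.56, 7.31, 7.34, 7.37 and 7.60. The restraint arrays lay close together, inside the range of the control arrays, and all 10 were above the control mean of their experiment. Since the gene was picked by its p from the same arrays, with no share over all probes given, this count is a description. Restraint plus propranolol values were 7.66, 7.82 and 7.36, and 7.25, 7.33 and 7.26. The difference between restraint and control was 0.27 (0.01 to 0.53, limma adjusted p = 0.33), and 0.16 without the 3 arrays of lowest weight. It was 0.20 without control replicate 5 of experiment 1 alone. Atp5g3, another c subunit gene, differed by -0.11 (-0.27 to 0.06). Atp5sl differed by 0.39 (-0.06 to 0.83) and Atp5s by -0.11 (-0.53 to 0.30). Atp5sl was at 0.13 and Atp5s at -0.21 without the 3 arrays. Control replicate 4 of experiment 2 alone moved Atp5sl to 0.17 when left out, and leaving out single arrays moved Atp5s between -0.23 and -0.02.

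The next comparison asked whether propranolol altered the genes under restraint. With limma, 0 of 84 probes were called at an adjusted p under 0.05, as were 0 of all probes (background 0%). At an unadjusted p under 0.05 there were 0 of 84, against 6.24% of all. The median difference between restraint plus propranolol and restraint was 0.02 (0.00 over all probes), and the medians by complex were 0.02, 0.06, -0.01, 0.04 and 0.02 in order from complex I to ATP synthase. The 95% interval lay within 1 log2 unit of no change for 82 probes and within 0.5 for 56. With each gene taken by its probe of highest mean, the smallest p among higher genes belonged to Ndufb7 (0.41, 95% interval -0.10 to 0.93), Cox7a2l (0.53, -0.18 to 1.24) and Cox6a1 (0.20, -0.08 to 0.49). These were 0.19, 0.18 and 0.13 without the 3 arrays, and without restraint plus propranolol replicate 3 of experiment 2 alone Ndufb7 was at 0.18 and Cox7a2l at 0.19. A second probe of Atp5j, at 0.30, had a smaller p than Cox7a2l. Among lower genes it belonged to Cox6a2 (-0.27, -0.59 to 0.04), Atp5sl (-0.40, -0.91 to 0.12) and Atp5o (-0.40, -0.99 to 0.20), the latter a peripheral stalk subunit. The smallest limma adjusted p was 0.81.

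Between restraint plus propranolol and control, limma called 0 of 84 probes at an adjusted p under 0.05, where the background was 3.49%. At an unadjusted p under 0.05 there were 2, both lower, or 2.38% against 18.4% of all. The median difference was 0.03 (0.00 over all probes), and -0.05 without the 3 arrays. This comparison shares its arrays with the others and is not independent of them. The smallest p belonged to Cox6a2, the muscle form of complex IV subunit 6a. Its control values were 9.05, 8.89, 8.90, 8.40 and 9.01 in experiment 1 and 8.95, 9.08, 9.17, 9.72 and 9.12 in experiment 2. With restraint they were 8.35, 8.59, 8.80, 8.70 and 8.41, and 8.61, 8.91, 9.18, 9.56 and 8.97. With restraint plus propranolol they were 8.35, 8.10 and 7.84 in experiment 1 and 9.25, 8.80 and 8.86 in experiment 2. In experiment 1 the 3 restraint plus propranolol arrays lay below all 5 control arrays, and in experiment 2 the groups overlapped. The experiment 1 control arrays lay on slide 1 and its restraint plus propranolol arrays on slide 2, so condition and slide cannot be told apart there. On slide 3, with 1 restraint plus propranolol and 2 control arrays of experiment 2, the difference was -0.17. The gene was picked by its p, and no share of all probes that separate in this way is given.

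The difference of Cox6a2 between restraint plus propranolol and control was -0.49 ± 0.15 (SE), with a 95% interval of -0.81 to -0.18 and a limma adjusted p of 0.068. It was -0.75 ± 0.21 in experiment 1 and -0.24 ± 0.21 in experiment 2, and the difference between experiments had an adjusted p of 0.89. It passed the threshold in the authors' normalized matrix (-0.38, limma adjusted p = 0.0497), with array weights (-0.53, 0.0086) and without restraint plus propranolol replicate 1 of experiment 2 (-0.59, 0.034). With slide as a term the limma adjusted p was 0.58, and without the 3 arrays of lowest weight it was 0.19 (-0.42). Of 37 alternatives, Cox6a2 passed in 3. The widely expressed Cox6a1 differed by 0.20 (-0.09 to 0.48), or 0.04 without the 3 arrays.

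The difference between the experiments was tested for each comparison as an interaction. Limma called 0 of 84 probes for restraint against control (background 0%), 0 for propranolol under restraint (background 0%) and 0 for restraint plus propranolol against control (background 0%). At an unadjusted p under 0.05 there were 0 of 84 in each, against 3.15%, 5.26% and 5.39% of all probes. Within single experiments limma also called 0 of 84 at an adjusted p under 0.05. The backgrounds of adjusted calls in experiments 1 and 2 were 0.286% and 0.0133% for restraint against control, 0% and 0% for propranolol under restraint, and 0.538% and 0.85% for restraint plus propranolol against control. At an unadjusted p under 0.05 there were 0 and 3 of 84 for restraint against control (9.45% and 8.25% of all probes). There were 1 and 3 for propranolol under restraint (2.31% and 10.9%), and 1 and 1 for restraint plus propranolol against control (9.24% and 16.1%). Of 12 genes with several tested probes, the probes differed in sign for 7 in restraint against control, 7 for propranolol under restraint and 5 for restraint plus propranolol against control. The largest spread between probes of a gene was 0.43.

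Neighbouring lists of energy metabolism were described in the same fit. Of 6 tested nuclear subunit genes that the rule leaves out, 1 fell after restraint (2.06% of all probes were called), and the median difference of the list was -0.12. The gene that fell was Ndufab1, the mitochondrial acyl carrier protein, which is also a complex I subunit. Its log2 intensity was 4.97 to 6.41 on control arrays (median 5.55), 4.58 to 5.52 on restraint arrays (median 4.83) and 4.63 to 5.20 on restraint plus propranolol arrays (median 4.86). It was detected on 9 of 10, 3 of 10 and 3 of 6 arrays, and 0 of 10 restraint arrays lay above the control mean of their experiment, although the ranges overlapped. It fell by 0.68 on the log2 scale with restraint (SE 0.15, limma adjusted p = 0.021) and by 0.72 with restraint plus propranolol against control (adjusted p = 0.022). The latter did not pass without restraint plus propranolol replicate 2 of experiment 1 (-0.66, adjusted p = 0.067) or replicate 3 of experiment 2 (-0.68, 0.058), nor with slide as a term (-0.62, 0.55). The difference between restraint and control was -0.65 in experiment 1 and -0.71 in experiment 2. With slide as a term it was -0.59 and no longer passed (adjusted p = 0.19), and without the 3 arrays of lowest weight it was -0.77 (adjusted p = 0.0089). In the authors' normalized matrix and with quantile normalization alone the sizes were smaller, down to -0.20 over 37 alternatives, of which 36 kept the call.

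Among 34 assembly factors, 17 genes of the tricarboxylic acid cycle and 70 mitochondrial ribosomal proteins, limma called 0 between restraint and control at an adjusted p under 0.05, with medians of -0.08, -0.09 and -0.04. Of 11 regulators of mitochondrial biogenesis, 0 were called and 0 had a positive difference, with a median of -0.10. Over all probes 51.3% were positive, and 2.06% were called. The regulators include Myc, a transcription factor of growth and metabolism, at -0.73 ± 0.23 (SE, limma adjusted p = 0.11), Ppargc1b, a coactivator, at -0.32 and Tfam, which packages mitochondrial DNA, at -0.23. Without the 3 arrays of lowest weight Myc was at -0.51 and Tfam at -0.35. The other Myc probe differed by -0.18. The mean of both probes passed the test (-0.45, adjusted p = 0.043), as did the first probe without restraint replicate 4 of experiment 2 (-0.83, 0.044). For restraint against control, these were the only 2 of 37 alternatives in which Myc passed. Between restraint plus propranolol and control, limma called 1 of the 11 regulators, 1 of the 17 cycle genes and 1 of the 70 ribosomal proteins. It called 0 of the 34 assembly factors, and the background was 3.49% of all probes. In this comparison Myc fell by 1.08 on the log2 scale (adjusted p = 0.022). Dlat, a subunit of pyruvate dehydrogenase, fell by 0.83 (adjusted p = 0.037), and Mrpl49, of the mitochondrial ribosome, by 0.92 (adjusted p = 0.00054). Dlat differed by -0.28 in experiment 1 and -1.38 in experiment 2, and was detected on 10 of 10 control and 4 of 6 restraint plus propranolol arrays. Without the 3 arrays Myc (-0.80, adjusted p = 0.11) and Dlat (-0.54, 0.22) no longer passed. With slide as a term Myc, Dlat and Mrpl49 were at -1.10, -1.01 and -1.02, no smaller in size, and did not pass (adjusted p of 0.42, 0.31 and 0.072). Averaged over its probes, Mrpl49 was at -0.18 (adjusted p = 0.44). Among the 37 alternatives, Myc passed in 33, Dlat in 23 and Mrpl49 in 35. Leaving out single arrays ended the Myc call for restraint plus propranolol replicate 2 of experiment 1 (-0.91, adjusted p = 0.083) and replicate 3 of experiment 2 (-1.02, 0.057). The Dlat call ended without any of 7 single arrays, with values of -0.62 to -0.82.

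The glycolysis list holds transporters and regulators besides the enzymes of the pathway. Of its 19 tested genes, 16 had a positive difference between restraint and control, with a median of 0.11, and 0 were called by limma. Over all probes 51.3% were positive and 2.06% were called. Nearest to the threshold were the glucose transporter Slc2a1 (0.43 ± 0.12 SE, adjusted p = 0.051), the hypoxia factor Hif1a (0.72 ± 0.20, adjusted p = 0.056) and the lactate exporter Slc16a3 (0.77 ± 0.22, adjusted p = 0.067). Slc2a1 and Slc16a3 were above the control mean of their experiment on 10 of 10 restraint arrays each, and Hif1a on 9. These counts too are a description, since the genes were picked by their p from the same arrays. Between restraint plus propranolol and control, 2 of the 19 rose (background 3.49% of all probes), Slc2a1 by 0.56 (adjusted p = 0.021) and Slc16a3 by 1.01 (adjusted p = 0.026). With slide as a term Slc2a1 was at 0.62 and Slc16a3 at 0.71, with adjusted p of 0.36 and 0.64. Without the 3 arrays they were at 0.67 and 0.70, with adjusted p of 0.0020 and 0.097. Both calls ended without restraint plus propranolol replicate 2 of experiment 1 (0.49 and 0.87, adjusted p = 0.075 and 0.092). That of Slc16a3 also ended without replicate 1 of experiment 1 (0.96, adjusted p = 0.060) or replicate 3 of experiment 2 (0.95, 0.066). The other probe of Slc16a3 differed by 0.01 between restraint and control. Without the 3 arrays, Slc2a1 (0.52, adjusted p = 0.0046) and Hif1a (0.60, 0.028) passed for restraint against control, and Slc16a3 (0.52, 0.12) did not. Of the 37 alternatives, Slc2a1 and Hif1a passed in 8 each and Slc16a3 in 1. Genes of mitochondrial DNA that encode subunits had 0 matching probes.

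**Figure D5:**
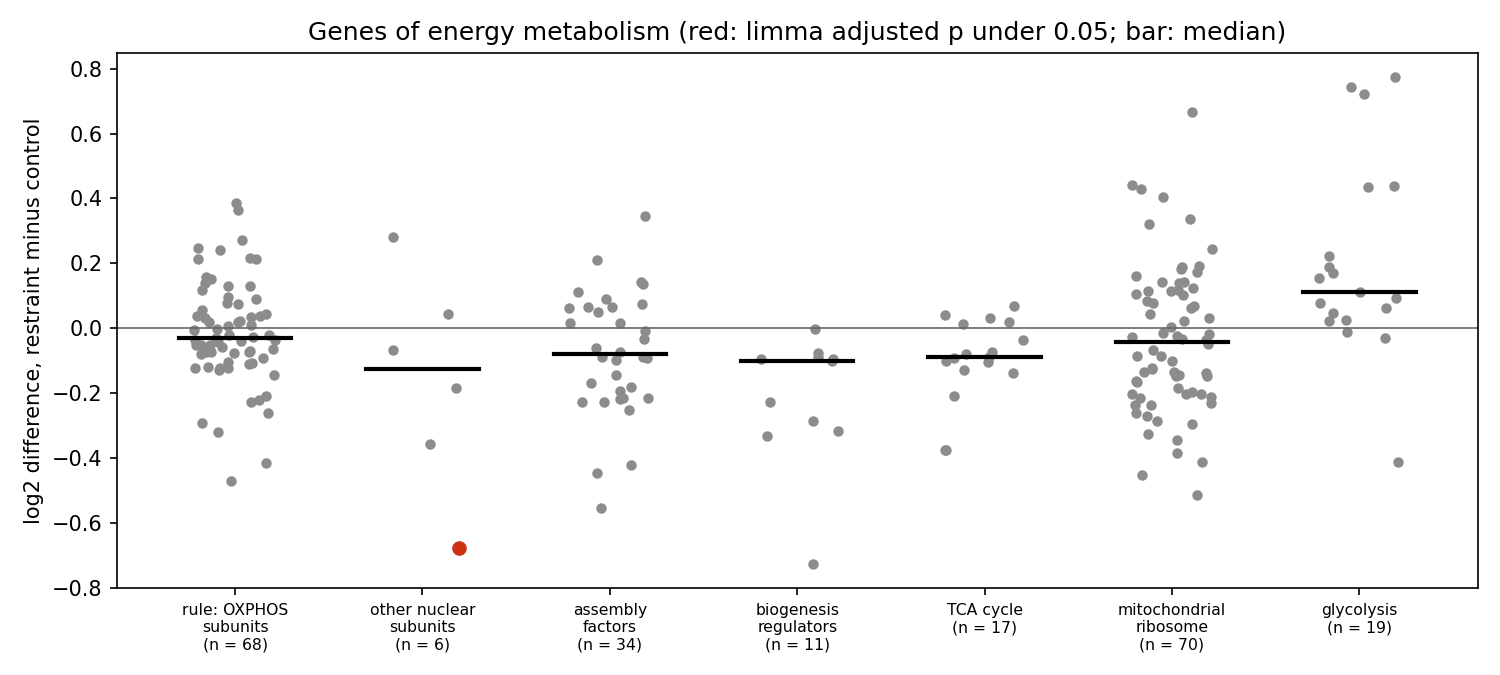
Log2 difference of restraint minus control for genes of the rule and of neighbouring lists of energy metabolism; each point is a gene (its probe of highest mean), bars are medians and red marks a limma adjusted p under 0.05. The medians are -0.03 for the 68 genes of the rule and 0.11 for the glycolysis list, and Ndufab1 at -0.68 is the only called gene shown.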

How the data were processed

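The authors deposited, per the file headers, a raw matrix with the mean bead intensity and a detection p-value of each probe on each Illumina MouseRef-8 v2.0 array, and a normalized matrix of intensity by symbol whose method is not given in the sources used here. GenomeStudio is named, with no version, per the submitters' processing notes. RNA was amplified with NuGEN kits, per the labels. The build behind the probe annotation is likewise not given. The raw matrix also holds 24 value columns of 6 arrays that were not used here.

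Intensities were corrected, quantile normalized and put on the log2 scale with limma's neqc (offset 16), the detection p-value giving the negative controls. The filter kept the 15061 probes with a detection p under 0.05 on 3 arrays or more. Linear models with condition and experiment, and with all 6 groups, were fitted with limma 3.58.1 in R 4.3.3, with Benjamini-Hochberg adjustment over all probes. The probe of highest mean stood for a gene. Fits were tested on simulated data. Named genes were called genes, the 3 of smallest p per direction for restraint against control and for propranolol under restraint, the largest difference each way per complex, core subunits, isoform sets and up to 3 per other list. Ndufb8 was added after its values were seen, and 1 gene of these lists is not reported here. Members and lists were chosen with earlier results of these data known. Alternatives were other normalizations, filters, blocks and weights, and leaving out arrays.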

Additional observations from a re-analysis of the deposited data

Results flagged for a closer look

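In groups of 5 arrays, single values far from the other 4 were looked for in 132 sets of values of the named genes and complexes (Dixon's test). There were 16, and chance gives about 1 in 20. Control replicate 5 of experiment 1 gave 4 of them, low for the complex III mean (8.24) and Ndufc2 (4.94) and high for Ndufb2 (8.90) and Cox6b2 (6.95). Control replicate 4 of experiment 2 gave low values of Atp5sl (5.23) and Ndufb7 (4.64) and high values of Ndufb2 (8.88) and Cox7a2 (8.48). Restraint replicate 4 of experiment 2 was low for the ATP synthase mean (8.42) and Ndufc2 (4.62). The other flags fell on single values: Cox6a2 in control replicate 4 of experiment 1 (8.40), Cox5a in restraint replicate 1 of experiment 1 (8.88), Atp5s in control replicate 1 of experiment 2 (5.83), Atp5a1 in restraint replicate 3 of experiment 2 (10.58), and in restraint replicate 5 of experiment 2 Atp5s (5.34) and Uqcrfs1 (6.31).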

How the results depend on the processing

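Under 37 alternatives, 0 oxidative phosphorylation probes were called for restraint against control and for propranolol under restraint, and under 35 alternatives 0 for either difference between experiments. For restraint plus propranolol against control, the count was 0 to 1, and 1 (Cox6a2) with the authors' normalized matrix, with array weights and without restraint plus propranolol replicate 1 of experiment 2. The median over the probes ran from -0.084 to 0.012 for restraint against control and from -0.012 to 0.116 for propranolol under restraint. For restraint plus propranolol against control it ran from -0.052 to 0.095. Each end of these ranges was smaller in size than the SD of single-array means within groups (0.119), though the last 2 ranges were wider than that SD. That SD is not the standard error of a difference between groups. The comparison therefore does not show that these medians are negligible. Over all probes, the count called between restraint and control was 310, and 150 to 432 with 1 array left out, 184 with no filter on dim probes, 923 with array weights, 103 with slide as a fixed term and 507 without the 3 arrays of lowest weight (added after the data had been seen). The cause was not tested. Same-numbered arrays did not deviate together (10 pairs, r from -0.21 to 0.32, 2 over 0.1). This check cannot exclude a pairing by number with a small shared effect. With the replicate block the median was -0.01 for restraint against control, 0 probes were called, and 328 of all probes were called. Between restraint plus propranolol and control, the block ended the calls of Ndufab1 (adjusted p = 0.069), Slc16a3 (0.078) and Dlat (0.14), as did a fit to the 2 conditions alone (0.051, 0.070 and 0.075), which also ended that of Slc2a1 (0.058).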
